A study of Mus musculus with 6 samples.

Results

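Pyruvate dehydrogenase, its kinases and its phosphatases were followed in mouse heart through 10 genes of 54352 in the expression table, chosen by symbol and each found in a single row. They were the kinase genes Pdk1, Pdk2, Pdk3 and Pdk4, the phosphatase genes Pdp1, Pdp2 and Pdpr, and the complex genes Pdha1, Pdhb and Pdhx. RNA sequencing covered 6 libraries of whole heart tissue in 3 groups of 2. In the group called T2D dnMCUb, C57BL/6 mice aged 12 weeks had been made diabetic (type 2 diabetes, T2D) by food with 60% of its calories from fat and 1 dose of streptozotocin, a toxin of pancreatic beta cells, at 75 mg/kg. After 16 to 18 weeks they received an adeno-associated virus (AAV) into the jugular vein that encoded FLAG-tagged mouse MCUb with the mutations W246R and V251E, a dominant negative form (dnMCUb) of this subunit of the mitochondrial calcium uniporter. The T2D empty vector group had the same diabetes and an AAV with no cargo. Hearts of both were taken 4 weeks after the virus and 5 to 6 months after induction. Control mice ate regular chow and received neither streptozotocin nor virus, so each T2D group differs from control in diet, toxin and virus together, and these cannot be told apart. The labels do not tell whether the 2 libraries of each group are of different animals, and they give neither the promoter of the vector nor the age of the control mice.

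The pyruvate dehydrogenase complex turns pyruvate into acetyl-CoA inside mitochondria and is the gate through which glucose carbon enters the TCA cycle. Kinases of the Pdk family phosphorylate its E1 alpha subunit and switch it off, and the phosphatases Pdp1 and Pdp2 remove the phosphate and switch it on. In heart muscle the gate is known to close when fatty acids are the main fuel, as in fasting and diabetes, and Pdk4 is the kinase gene best known to be induced there. The catalytic subunit of Pdp1 is stimulated by calcium, which links the complex to mitochondrial calcium uptake.

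The promoters of the 3 kinase genes with a mean rlog above 10 are shown because these genes parted in the results below, with Pdk4 far from Pdk1 and Pdk2. RefSeq promoter windows on GRCm38.p6 were found for 9 of the 10 genes, all but Pdp1. Each sequence is the 200 bases that end 51 bases before the RefSeq transcript start, 5′ to 3′ on the strand of the gene. Capitals mark a CCAAT box (CCAAT), a GC box (GGGCGG) or an E-box (CACGTG), searched on both strands.
Pdk4, chr6:5496329-5496528, minus strand: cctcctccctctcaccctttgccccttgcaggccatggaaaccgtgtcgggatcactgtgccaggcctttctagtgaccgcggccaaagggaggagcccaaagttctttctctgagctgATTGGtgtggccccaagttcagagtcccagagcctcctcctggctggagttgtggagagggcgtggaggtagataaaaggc
Pdk1, chr2:71872974-71873173, plus strand: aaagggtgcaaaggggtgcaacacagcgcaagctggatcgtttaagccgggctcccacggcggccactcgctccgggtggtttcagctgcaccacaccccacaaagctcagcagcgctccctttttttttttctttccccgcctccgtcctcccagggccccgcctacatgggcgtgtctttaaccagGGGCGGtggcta
Pdk2, chr11:95041422-95041621, minus strand: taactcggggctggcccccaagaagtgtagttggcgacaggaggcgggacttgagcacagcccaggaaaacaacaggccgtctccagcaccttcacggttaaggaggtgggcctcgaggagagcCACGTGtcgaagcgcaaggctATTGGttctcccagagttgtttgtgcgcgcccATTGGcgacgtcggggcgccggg

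The Pdk4 window holds 1 CCAAT box, read on the opposite strand from -131 to -127 relative to the RefSeq start, and none of the other motifs. The Pdk1 window holds a GC box from -62 to -57. Pdk2 has an E-box from -126 to -121 and CCAAT boxes from -105 to -101 and from -73 to -69. Of 32851 promoter windows of this length, 28.4% hold a CCAAT box, 24.6% a GC box and 4.34% an E-box. The DR1 element bound by PPAR receptors (AGGTCA, any base, AGGTCA), the ERR element (TCAAGGTCA), the forkhead element (GTAAACA) and the palindromic glucocorticoid response element (AGAACA, any 3 bases, TGTTCT) have no match in the windows of the 9 genes. They occur in 0.0244%, 0.323%, 2.58% and 0.00913% of all windows. A match or its absence describes these letters only.

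Values are rlog values, which are expression levels on the log2 scale after a regularized transformation that draws libraries towards each other, so differences are compressed. Differences were tested with limma over the 13094 genes whose mean rlog reached 5, a filter that all 10 genes passed, and p-values were adjusted over all genes tested. The table holds no counts, so the depth of the libraries is unknown. Ventricular myocyte genes were high in every library, with a mean rlog over 8 markers of 16.28 and 16.53 in T2D dnMCUb hearts, 16.48 and 16.45 in T2D empty vector hearts and 16.61 and 16.54 in control hearts. Library 1 of T2D dnMCUb stood apart on the main axis of variation between libraries, at 10.8 where the other libraries lay between -4.42 and 2.69. Mcub, the gene of the vector's cargo, had an rlog of 5.62 and 5.47 in T2D dnMCUb hearts, 5.48 and 5.46 in T2D empty vector hearts and 5.42 and 5.47 in control hearts. It was not called (difference between the T2D groups 0.08, SE 0.05, adjusted p = 0.888), so directions that involve T2D dnMCUb rest on the label.

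Pdk4 (ENSMUSG00000019577.6, minus strand of chromosome 6 from 5483351 to 5496309 on GRCm38, 11 exons) was higher in all 4 T2D libraries than in both control libraries. Its rlog was 13.49 and 13.99 in T2D dnMCUb hearts, 13.71 and 13.71 in T2D empty vector hearts and 12.67 and 12.31 in control hearts. The groups with diabetes do not overlap with control, and the 2 empty vector libraries are nearly equal while the dnMCUb libraries lie on either side of them. Lack of overlap alone is not rare with 2 libraries a group. Among tested genes, 20.2% had both T2D dnMCUb libraries above both control libraries, and 19.9% had both empty vector libraries there. Pdk4 averaged 13.74 ± 0.36 in T2D dnMCUb, 13.71 ± 0.0017 in T2D empty vector and 12.49 ± 0.26 in control hearts (SD, n = 2 each).

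Against control, Pdk4 differed by 1.22 (SE 0.17, 95% interval 0.82 to 1.61) in T2D empty vector and by 1.25 (SE 0.17, 95% interval 0.85 to 1.64) in T2D dnMCUb, which are rlog differences. It ranked 5 and 23 by p among the genes tested, and neither difference passed (limma, adjusted p = 0.326 and 0.0576). Both comparisons use the same control libraries, so they are not independent. With only the groups compared in the fit, the difference in T2D empty vector passed (adjusted p = 0.00221; range over 12 alternatives 0.00215 to 0.996). For T2D dnMCUb the same change of fit gave 0.142 (range over 12 alternatives 0.00141 to 0.498). Leaving out library 1 of T2D dnMCUb gave 0.00141 and leaving out library 2 gave 0.0126, so that each passed. The authors' deposited table, made from another model, gives Pdk4 a log2 fold of 1.79 (adjusted p = 6.62e-07) in T2D empty vector and of 1.86 (adjusted p = 0.00903) in T2D dnMCUb, both against control. The rlog differences of Pdk4 are 0.682 and 0.669 of those folds.

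The background of these calls is sparse. Between T2D empty vector and control limma called 0 genes, or 0%, against 803 at an unadjusted p under 0.05, or 6.13%, and the authors' deposited table calls 72, or 0.255%. Between T2D dnMCUb and control limma called 9 genes, or 0.0687%, and the authors' deposited table calls 104, or 0.357%. With only the groups compared in the fit, limma called 30 of 13094 genes between T2D empty vector and control. The same change of fit gave 0 genes between T2D dnMCUb and control. With both T2D groups set against control the Pdk4 difference was 1.23 (SE 0.15, adjusted p = 0.0745; range over 11 alternatives 0.000637 to 0.762), where 0% of genes were called and 9.69% had an unadjusted p under 0.05.

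Between the T2D groups Pdk4 did not differ beyond its error. The difference, T2D dnMCUb minus T2D empty vector, was 0.03 (SE 0.17, adjusted p = 0.985) with a 95% interval from -0.37 to 0.43, so a change of that size either way cannot be told from none. It was 0.29 without library 1 of T2D dnMCUb and -0.22 without library 2. The authors' deposited table gives a log2 fold of 0.09 (adjusted p = 0.99993). In this comparison limma called 0% of genes and had 739 at an unadjusted p under 0.05, or 5.64%, and the authors' deposited table calls 0.0311%.

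Among 184 tested genes with an SD of at least 0.2, Pdk4 itself included, those most like Pdk4 over the 6 libraries were sought. Led by Acot1 (Pearson r = 0.994), they included Rhobtb1 (0.984), Acot2 (0.974) and Scd4 (0.965). Acot1 and Acot2 are acyl-CoA thioesterases, which release free fatty acids from their CoA esters, and Scd4 is a fatty acid desaturase. Acot1 had an rlog of 8.83 and 9.06 in T2D dnMCUb hearts, 8.85 and 8.92 in T2D empty vector hearts and 8.47 and 8.25 in control hearts. The order of its libraries is close to that of Pdk4, down to the lower value in control library 2. The genes most opposed to Pdk4 were Abat (r = -0.972), which breaks down GABA, the clock gene Arntl (-0.948) and the natriuretic peptide gene Nppb (-0.932). These r values describe 6 points that fall mostly into control and T2D, share library effects and were picked as extremes, so a gene with a like gap between these groups scores high by this measure.

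**Figure D1:**
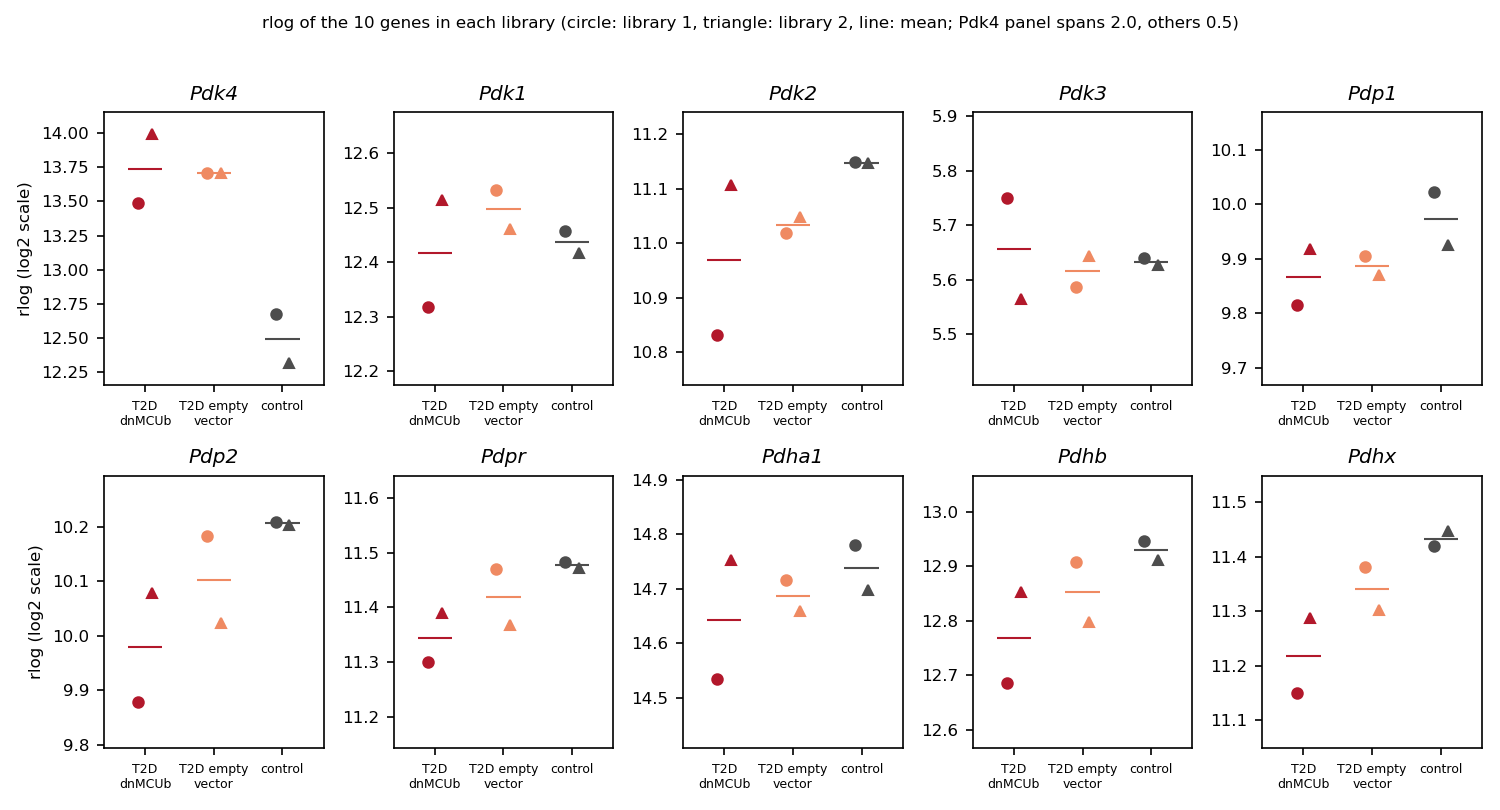
Each panel plots the rlog (log2 scale, y axis) of a gene in the 6 libraries by group, with library 1 as a circle, library 2 as a triangle and the group mean as a line. Pdk4 lies between 13.49 and 13.99 in the T2D libraries and at 12.67 and 12.31 in control hearts, while library 1 of T2D dnMCUb is the lowest point for 8 of the other 9 genes.

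None of the other kinase genes passed in any comparison in the fit of all 6 libraries. Pdk1 (chromosome 2, 71873224 to 71903858, plus strand) had an rlog of 12.32 and 12.51 in T2D dnMCUb hearts, 12.53 and 12.46 in T2D empty vector hearts and 12.46 and 12.42 in control hearts. The T2D dnMCUb libraries hold the lowest value and one near the top, and they overlap with both other groups. Its differences were 0.06 (SE 0.08, 95% interval -0.12 to 0.24) in T2D empty vector and -0.02 (SE 0.08, 95% interval -0.20 to 0.15) in T2D dnMCUb, each against control.

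Pdk2 (chromosome 11, 95026258 to 95041354, minus strand), the broadly expressed kinase of the family, had an rlog of 10.83 and 11.11 in T2D dnMCUb hearts, 11.02 and 11.05 in T2D empty vector hearts and 11.15 and 11.15 in control hearts. All 4 T2D libraries lie below both control libraries, by little. Of tested genes, 22.5% had both T2D empty vector libraries below both control libraries, and 22.7% had both T2D dnMCUb libraries there. Pdk2 differed from control by -0.11 (SE 0.08, adjusted p = 0.859) in T2D empty vector and by -0.18 (SE 0.08, adjusted p = 0.466) in T2D dnMCUb, and by -0.06 (SE 0.08, adjusted p = 0.933) between the T2D groups. Without library 2 of T2D dnMCUb the difference from control was -0.32, and without library 1 it was -0.04.

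Pdk3 (chromosome X, 93764607 to 93832201, minus strand), the kinase known mainly from testis and brain, was near the filter. Its rlog was 5.75 and 5.56 in T2D dnMCUb hearts, 5.59 and 5.64 in T2D empty vector hearts and 5.64 and 5.63 in control hearts, and the groups overlap. Low rlog values are the most strongly compressed, so little can be read from its differences of -0.02, 0.04 and 0.02 (SE 0.06 each), given for T2D empty vector against control, T2D dnMCUb against T2D empty vector and T2D dnMCUb against control.

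The makeup of the kinase transcripts differed between T2D and control hearts. To compare genes within a library, 2 to the power of rlog was divided by transcript length and summed over the 4 kinases. Pdk4 held 64.4% and 68.7% of that sum in T2D dnMCUb hearts, 64.8% and 65.2% in T2D empty vector hearts and 46.9% and 41.1% in control. The means were 66.5% ± 3.06, 65.0% ± 0.299 and 44.0% ± 4.09 (SD, n = 2 each) in that order. Pdk1 held 17.9%, 18.8% and 28.4% on average and Pdk2 15.2%, 15.8% and 27.0%, in T2D dnMCUb, T2D empty vector and control. Pdk3 stayed below 0.7% in every library. These shares are descriptions with no test, and since all 4 kinases share 1 sum, a larger share of Pdk4 leaves less to the others. With exon union lengths from GENCODE in place of the lengths in the table, the Pdk4 means were 74.1%, 72.8% and 53.1% in the same order.

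**Figure D2:**
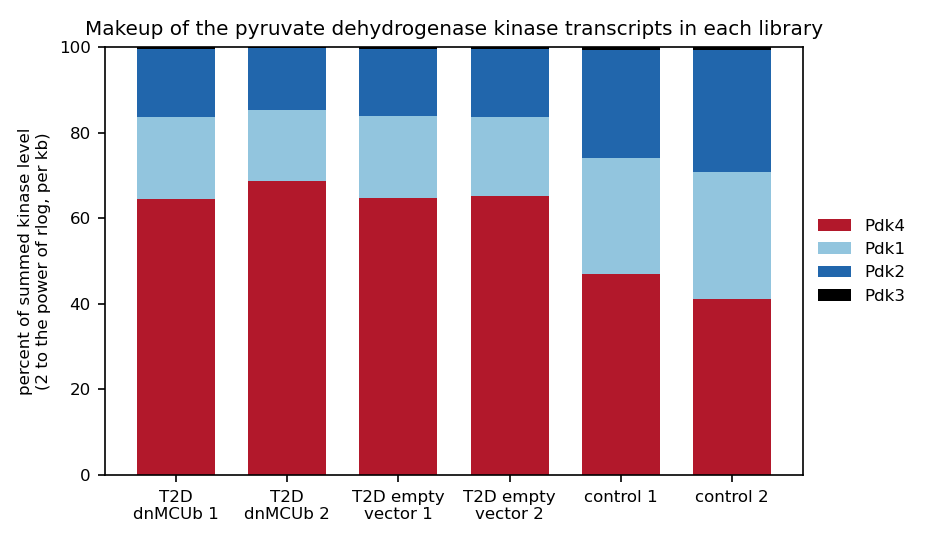
Stacked bars show the percent of the summed kinase level (2 to the power of rlog per kb of transcript, y axis from 0 to 100) held by each kinase gene in each library (x axis). Pdk4 takes between 64.4% and 68.7% in the 4 T2D libraries, above the 46.9% and 41.1% of the control libraries.

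The 3 phosphatase genes had differences below 0 in all 3 comparisons, and none passed in the fit of all 6 libraries. Pdp2 (chromosome 8, 104591451 to 104599026, plus strand), a catalytic subunit that does not need calcium, had an rlog of 9.88 and 10.08 in T2D dnMCUb hearts, 10.18 and 10.02 in T2D empty vector hearts and 10.21 and 10.20 in control hearts. The control libraries are nearly equal and the highest, and library 1 of T2D empty vector comes close to them. Against control Pdp2 differed by -0.10 (SE 0.08, adjusted p = 0.861) in T2D empty vector and by -0.23 (SE 0.08, adjusted p = 0.333, unadjusted 0.0198) in T2D dnMCUb. The comparison of T2D dnMCUb with control had 11.4% of all tested genes at an unadjusted p under 0.05. Without library 2 of T2D dnMCUb the Pdp2 difference from control was -0.33, and without library 1 it was -0.13. The authors' deposited table gives a log2 fold of -0.39 (adjusted p = 0.535). The T2D empty vector difference was -0.02 without its library 2 and -0.18 without its library 1.

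Pdp1 (chromosome 4, 11959811 to 11966420, minus strand), the catalytic subunit that calcium stimulates, had an rlog of 9.81 and 9.92 in T2D dnMCUb hearts, 9.91 and 9.87 in T2D empty vector hearts and 10.02 and 9.93 in control hearts. The highest T2D library and the lowest control library are almost level. Pdp1 differed by -0.09 (SE 0.06, adjusted p = 0.849) in T2D empty vector and by -0.11 (SE 0.06, adjusted p = 0.496) in T2D dnMCUb against control, and by -0.02 (95% interval -0.15 to 0.11) between the T2D groups.

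Pdpr (chromosome 8, 111094641 to 111137074, plus strand), the regulatory subunit that restrains the phosphatase, had an rlog of 11.30 and 11.39 in T2D dnMCUb hearts, 11.47 and 11.37 in T2D empty vector hearts and 11.48 and 11.47 in control hearts. It differed by -0.06 (SE 0.06, adjusted p = 0.884) in T2D empty vector and by -0.13 (SE 0.06, adjusted p = 0.442) in T2D dnMCUb, each against control. Without T2D empty vector library 2, which leaves a library level with control, the T2D empty vector difference was -0.0083, and without its library 1 it was -0.11. The T2D dnMCUb difference was -0.09 without its library 1.

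Within a library, the summed level of the kinases over that of Pdp1 and Pdp2, per transcript length and on the log2 scale, was 3.00 and 3.28 in T2D dnMCUb hearts, 3.06 and 3.12 in T2D empty vector hearts and 2.40 and 2.30 in control hearts. With Pdk4 left out of the sum the ratio was 1.51 and 1.61, 1.56 and 1.60, and 1.48 and 1.53, in the same order of groups. The gap between T2D and control in the full ratio is therefore mostly the Pdk4 term. Transcript ratios do not measure kinase or phosphatase activity.

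Genes of the complex itself had differences below 0 in all 3 comparisons, and none passed in the fit of all 6 libraries. Pdha1 (chromosome X, 160122209 to 160138413, minus strand) encodes the E1 alpha subunit that the kinases phosphorylate and had the highest rlog of the 10 genes. It was at 14.53 and 14.75 in T2D dnMCUb hearts, 14.72 and 14.66 in T2D empty vector hearts and 14.78 and 14.70 in control hearts, with overlap between all groups. Pdha1 differed by -0.05 (SE 0.09, 95% interval -0.27 to 0.17) in T2D empty vector and by -0.10 (SE 0.09, 95% interval -0.31 to 0.12) in T2D dnMCUb, against control.

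Pdhb (chromosome 14, 8165996 to 8173025, minus strand), the E1 beta subunit, had an rlog of 12.68 and 12.85 in T2D dnMCUb hearts, 12.91 and 12.80 in T2D empty vector hearts and 12.95 and 12.91 in control hearts. Its differences from control were -0.08 (SE 0.08, adjusted p = 0.885) in T2D empty vector and -0.16 (SE 0.08, adjusted p = 0.466) in T2D dnMCUb. The T2D empty vector difference was -0.02 without its library 2 and -0.13 without its library 1. That of T2D dnMCUb was -0.08 without its library 1 and -0.24 without its library 2.

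Pdhx (chromosome 2, 103021075 to 103073513, minus strand) encodes the protein that anchors the E3 subunit to the core. Its rlog was 11.15 and 11.29 in T2D dnMCUb hearts, 11.38 and 11.30 in T2D empty vector hearts and 11.42 and 11.45 in control hearts, and the 3 groups do not overlap. Pdhx was lower than control by a difference of -0.09 (SE 0.06, adjusted p = 0.851) in T2D empty vector and of -0.21 (SE 0.06, adjusted p = 0.273, unadjusted 0.00895) in T2D dnMCUb. Between the T2D groups it differed by -0.12 (SE 0.06, adjusted p = 0.877, 95% interval -0.27 to 0.02). Without library 2 of T2D dnMCUb the difference of that group from control was -0.28, and without library 1 it was -0.15. The authors' deposited table gives a log2 fold of -0.33 (adjusted p = 0.461).

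The remaining subunits of the complex, E2 (Dlat) and E3 (Dld), were no members of the set and lay in the same range. Dlat differed by -0.03 (SE 0.08) in T2D empty vector and -0.10 (SE 0.08) in T2D dnMCUb against control, and Dld by -0.07 (SE 0.08) and -0.15 (SE 0.08), none passing.

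**Figure D3:**
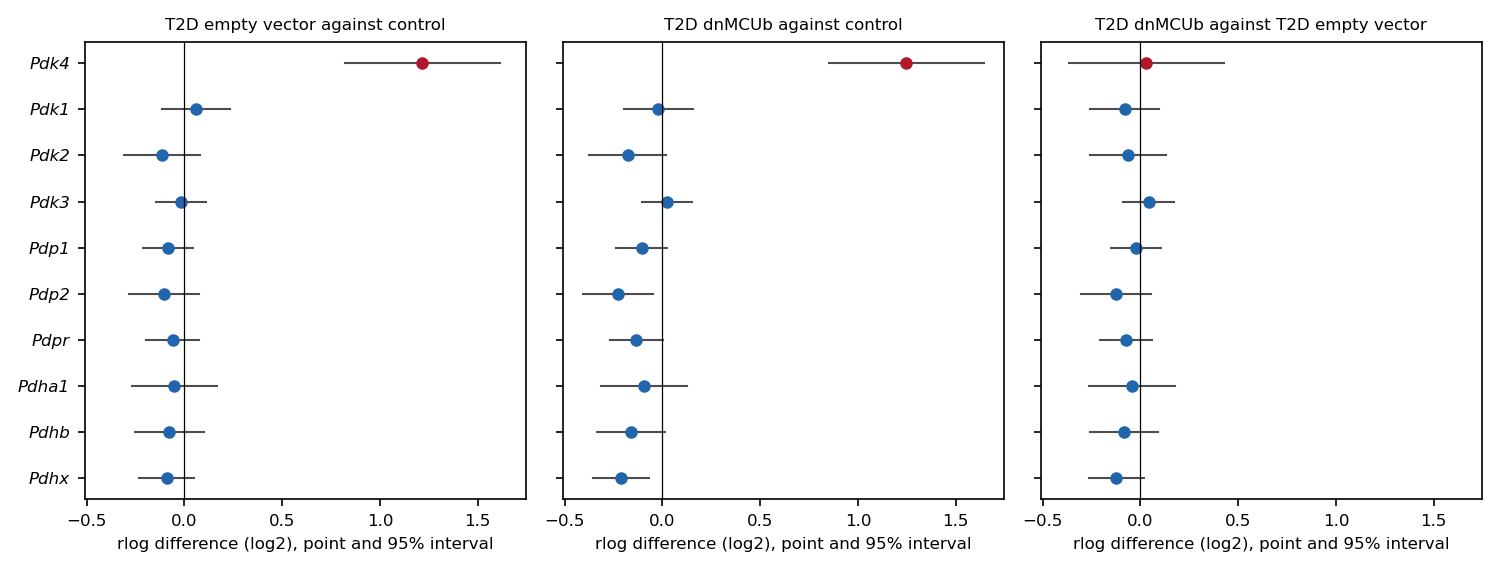
Points are rlog differences (log2, x axis) of the 10 genes (y axis) in 3 comparisons, with 95% intervals from limma's standard errors as lines. Pdk4 lies at 1.22 and 1.25 against control and at 0.03 between the T2D groups, and the other 9 genes lie between -0.23 and 0.06.

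Over the 9 genes other than Pdk4, 8 had a difference below 0 in each of the 3 comparisons, with medians of -0.08 in T2D empty vector against control, -0.13 in T2D dnMCUb against control and -0.07 in T2D dnMCUb against T2D empty vector. Differences below 0 were seen for 51.8%, 51.5% and 50.5% of all tested genes, whose medians were -0.0025, -0.0023 and -0.00051. Groups stood apart with T2D lower for 6 of the 9 genes in T2D empty vector and for 6 in T2D dnMCUb, where this held for 22.5% and 22.7% of tested genes. Against T2D empty vector, T2D dnMCUb stood apart below for 1 gene, Pdhx, with 16.5% of tested genes doing so. None of the 9 passed in any comparison in the fit of all 6 libraries (smallest adjusted p = 0.273). The 2 comparisons with control share its libraries, and the 2 with T2D empty vector share that group, so the counts are not independent.

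The medians moved with single libraries. For T2D empty vector against control it was -0.02 when T2D empty vector library 2 was left out, with 8 of 9 genes below 0. For T2D dnMCUb against control it was -0.20 without T2D dnMCUb library 2, again with 8 of 9. For T2D dnMCUb against T2D empty vector it was -0.17 without T2D dnMCUb library 2, -0.03 without T2D empty vector library 1 and -0.12 without T2D empty vector library 2. Library 1 of T2D dnMCUb was the lowest for 8 of the 10 genes, all but Pdk3 and Pdk4, and for 27.8% of all tested genes. For these 8 genes its value minus the mean of the other libraries lay between -0.262 and -0.113, with a median of -0.0068 over all tested genes. Without it, 5 of the 9 genes were below T2D empty vector (48.6% of tested genes) with a median of -0.00085, and 7 of 9 were below control (50.3% of tested genes) with a median of -0.07. The same library had the lowest mean over ventricular myocyte markers, at 16.28, and the highest over fibroblast markers, at 11.11 where the others lay between 10.54 and 10.90. Its mean over atrial myocyte markers was 8.28 against 6.71 in library 2, with 7.77 and 6.88 in control hearts, and over smooth muscle markers 10.49 against 9.60 in library 2. Over ventricular markers the other T2D libraries, at 16.53, 16.48 and 16.45, were also below the control libraries, at 16.61 and 16.54. Of these markers Ryr2 went the other way in T2D empty vector hearts, at 15.91 and 15.94 against 15.85 and 15.83 in control hearts. All 8 ventricular and 6 fibroblast markers and 4 of 5 atrial markers had a mean rlog of at least 5, while all 5 adipocyte markers were below it. The part of cell makeup in the lower values was not tested. In whole tissue, fewer cells of a type and less RNA per cell cannot be told apart.

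The Pdk4 difference between T2D empty vector and control ran from 1.04 to 1.40 as each of the 6 libraries was left out in turn. Control library 1, the higher of the 2 for Pdk4, also had the higher atrial mean, at 7.77 against 6.88 in control library 2. Myl7 (9.45 against 7.32), Myl4 (9.47 against 7.53) and Sln (6.98 against 6.07) were higher there. Nppa was lower, at 10.52 against 11.01, and Bmp10 was level, at 2.43 and 2.44. The mean over red cell markers was 8.48 and 8.89 in T2D dnMCUb hearts, 7.93 and 7.96 in T2D empty vector hearts and 8.63 and 7.95 in control hearts. It is higher in both T2D dnMCUb libraries than in both T2D empty vector libraries, and highest in library 2 of T2D dnMCUb, where Pdk4 is also highest. The part of red cells in the Pdk4 values was not tested. Without control library 1 the Pdk4 difference was 1.40, and without control library 2 it was 1.04.

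Levels of the genes were ordered as rlog minus log2 of the transcript length in kb. The highest was Pdha1 at 13.19 on average over the 6 libraries, followed by Pdhb at 12.27 and Pdk4 at 11.52. Pdk1, Pdhx and Pdk2 followed at 10.08, 10.02 and 9.90. Their ranges over the libraries overlap, from 9.95 to 10.16 for Pdk1 and from 9.68 to 9.99 for Pdk2, but within each of the 6 libraries Pdk2 was below both others. Pdk1 was above Pdhx in the 4 T2D libraries and below it in both control libraries. Pdpr at 9.12 and Pdp1 at 9.00 also overlap in range, with Pdpr the higher in each of the 6 libraries, and Pdp2 at 7.59 and Pdk3 at 4.57 closed the order. Pdk4 came next after Pdhb in every library, at 11.95, 11.92 and 10.70 in T2D dnMCUb, T2D empty vector and control. With exon union lengths Pdk4 passed Pdhb, at 11.50 and 10.90, and Pdk2 passed Pdhx. Each gene's length is that of 1 transcript, within 35 bases of the GENCODE exon sum, and Pdp1, whose listed transcript has 1876 bases where its exon union has 4507, is the least certain with Pdhb.

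**Figure D4:**
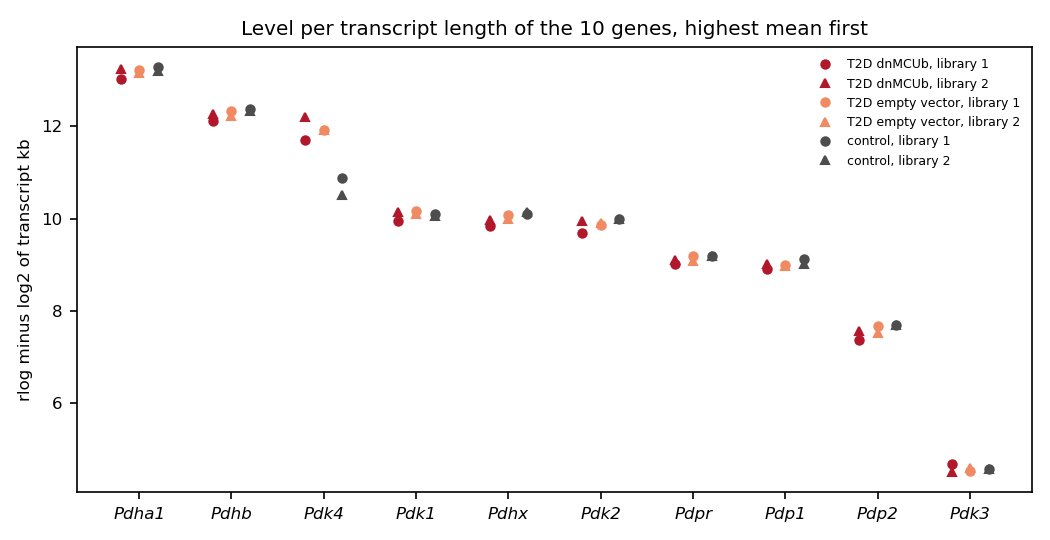
The y axis gives rlog minus log2 of the transcript length in kb for each of the 10 genes (x axis, highest mean first), with colours for groups and shapes for libraries. The T2D libraries of Pdk4 lie between 11.69 and 12.20 and its control libraries at 10.88 and 10.52.

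Other genes that handle pyruvate had small differences, and none passed. Of 10 genes for pyruvate carriers and its other fates, 0 passed in either direction in any comparison. Against control 8 were below 0 in T2D empty vector hearts (median -0.05) and 8 in T2D dnMCUb hearts (median -0.11). Of all tested genes 51.8% and 51.5% were below 0 there. Pcx, pyruvate carboxylase, had the smallest p. Its rlog was 8.84 and 8.88 in T2D dnMCUb hearts, 9.02 and 8.94 in T2D empty vector hearts and 9.22 and 9.13 in control hearts. It differed from control by -0.19 (SE 0.05, adjusted p = 0.684) in T2D empty vector and by -0.31 (SE 0.05, adjusted p = 0.0742) in T2D dnMCUb. Ldhb, the lactate dehydrogenase subunit typical of heart, was at -0.26 (SE 0.09, adjusted p = 0.324) in T2D dnMCUb against control, and Gpt, an alanine transaminase, at -0.17 (SE 0.07, adjusted p = 0.805) in T2D empty vector. Between the T2D groups Pcx was at -0.13 (SE 0.05, adjusted p = 0.869) and Mpc2, a subunit of the mitochondrial pyruvate carrier, at -0.08 (SE 0.07, adjusted p = 0.916). The count below 0 there was 9 of 10 (median -0.05), against 50.5% of tested genes. Without library 1 of T2D dnMCUb it was 5 of 10 (median -0.00079), and the median was -0.11 without library 2 of either T2D group. Against control the median of T2D dnMCUb was -0.04 without its library 1 and -0.18 without its library 2. That of T2D empty vector was -0.02 without its library 2, -0.09 without its library 1 and -0.03 without control library 1.

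The sister complexes are built like pyruvate dehydrogenase and share its E3 subunit, and the kinase and phosphatase of the branched chain complex, Bckdk and Ppm1k, parallel Pdk and Pdp genes. Of 8 such genes 0 passed, 6 were below control in T2D empty vector (median -0.07) and 8 in T2D dnMCUb (median -0.15), where 51.8% and 51.5% of tested genes were. Bckdhb and Dbt, subunits of the branched chain complex, had the smallest p in both. Dbt was at -0.14 (SE 0.06, adjusted p = 0.805) in T2D empty vector and -0.28 (SE 0.06, adjusted p = 0.161) in T2D dnMCUb, and Bckdhb at -0.19 (SE 0.06, adjusted p = 0.778) and -0.27 (SE 0.06, adjusted p = 0.184). In T2D dnMCUb against T2D empty vector Dbt was at -0.14 (SE 0.06, adjusted p = 0.869) and Dhtkd1, an E1 subunit of lysine breakdown, at -0.07 (SE 0.03, adjusted p = 0.869). The count below 0 there was 8 of 8 (median -0.08), against 50.5% of tested genes. Without library 1 of T2D dnMCUb it was 5 of 8 (median -0.02), and without library 2 it was 8 of 8 (median -0.17). Leaving out T2D empty vector library 1 gave 7 of 8 (median -0.05). For T2D dnMCUb against control the count was 6 of 8 (median -0.04) without its library 1 and 8 of 8 (median -0.26) without its library 2. For T2D empty vector against control it was 5 of 8 without control library 1 (median -0.04).

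Transcriptional regulators reported for Pdk genes lay on both sides of control. Of 13 genes 0 passed, with 8 above control in T2D empty vector (median 0.05) and 5 in T2D dnMCUb (median -0.01). Of all tested genes 48.2% and 48.5% were above control there. The T2D empty vector median was 0.03 without its library 2 and 0.02 without control library 2. The T2D dnMCUb median was -0.11 without its library 2, -0.05 without control library 2 and -0.02 without control library 1. Lpin1, a coactivator of PPAR alpha as well as an enzyme of lipid synthesis, had an rlog of 11.78 and 11.78 in T2D dnMCUb hearts, 11.91 and 11.92 in T2D empty vector hearts and 12.11 and 12.17 in control hearts. Lpin1 differed from control by -0.23 (SE 0.05, adjusted p = 0.581) in T2D empty vector and by -0.36 (SE 0.05, adjusted p = 0.0597) in T2D dnMCUb. Pparg, the PPAR best known from fat, was at 0.20 (SE 0.06, adjusted p = 0.273) in T2D dnMCUb, and Foxo3, a forkhead factor that insulin signalling restrains, at 0.10 (SE 0.05, adjusted p = 0.805) in T2D empty vector, each against control. Of the 13, T2D dnMCUb was below T2D empty vector for 12 (median -0.06, with 50.5% of tested genes lower). Without library 1 of T2D dnMCUb it was below for 6 (median 0.01, with 48.6% of tested genes lower). Esrrg, an estrogen related receptor of oxidative metabolism, was at -0.09 (SE 0.05, adjusted p = 0.878) there.

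PPAR alpha is a receptor that senses fatty acids in heart muscle, and Pdk4 is itself among its known targets. Of 20 other PPAR alpha targets of fatty acid use, 20 were above control in T2D empty vector, where 48.2% of all tested genes were, with a median of 0.16, and groups stood apart with T2D higher for 17 of them against 19.9% of tested genes. In T2D dnMCUb 19 of 20 were above control, where 48.5% of all tested genes were, with a median of 0.12, and groups stood apart for 8 against 20.2% of tested genes. Without control library 2, 18 of 20 were above control in T2D empty vector (48.6% of tested genes, median 0.11). Without T2D empty vector library 1 it was 19 of 20 (48.5% of tested genes, median 0.12). None of the 20 passed over all genes tested in the fit of all 6 libraries. Acot1 differed by 0.53 (SE 0.09, adjusted p = 0.435) in T2D empty vector and 0.58 (SE 0.09, adjusted p = 0.0733) in T2D dnMCUb, and Acot2 by 0.56 (SE 0.10, adjusted p = 0.435) in T2D empty vector. Without library 2 of T2D dnMCUb, 11 of 20 were above control in that group (47.2% of tested genes) with a median of 0.02, and without library 1 it was 20 of 20 with a median of 0.25.

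Between the T2D groups 6 of the 20 targets were higher in T2D dnMCUb (median -0.03, with 49.5% of tested genes higher), and the count turned with the library. It was 19 of 20 (median 0.11) without library 1 of T2D dnMCUb and 2 of 20 (median -0.15) without library 2, and 12 of 20 (median 0.0028) without T2D empty vector library 1 and 4 of 20 (median -0.05) without T2D empty vector library 2. Angptl4, a secreted inhibitor of lipoprotein lipase, had an rlog of 7.33 and 7.90 in T2D dnMCUb hearts, 7.34 and 7.28 in T2D empty vector hearts and 7.32 and 7.13 in control hearts, with library 2 of T2D dnMCUb alone above the rest. It differed by 0.30 (SE 0.16, adjusted p = 0.879) between the T2D groups. Pdk4 has its highest value in the same library.

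**Figure D5:**
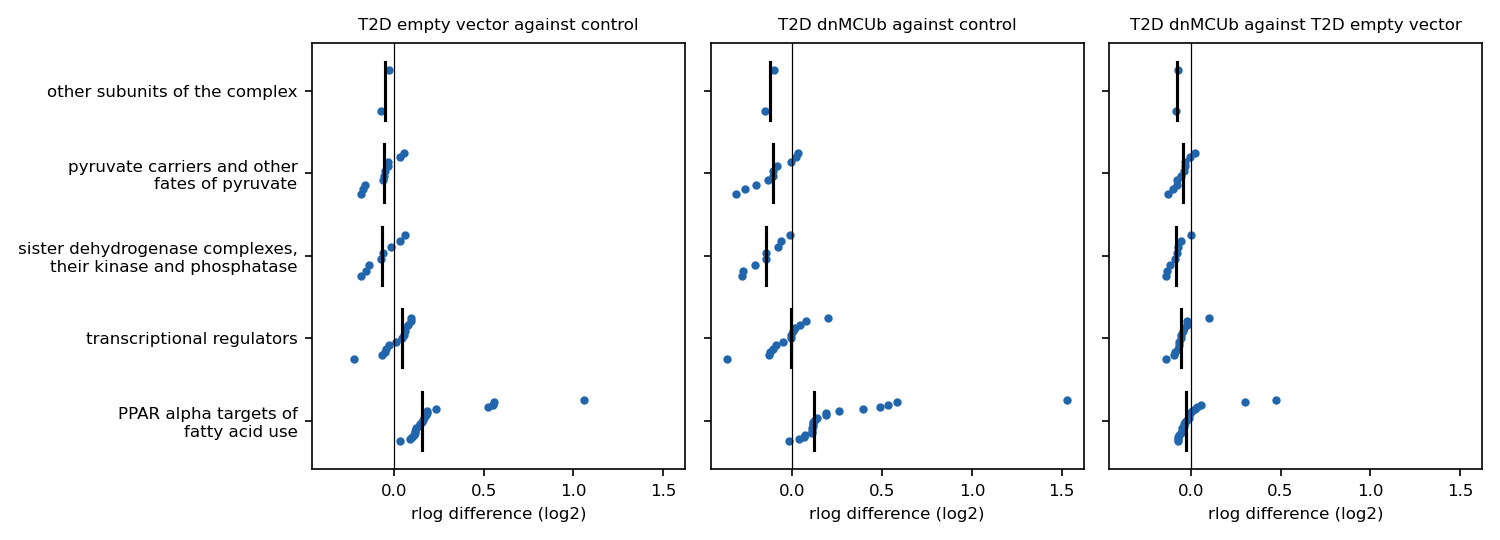
Points are rlog differences (log2, x axis) of the genes of 5 lists (y axis) in 3 comparisons, and vertical bars are list medians. The PPAR alpha targets lie to the right in both comparisons with control, at medians of 0.16 and 0.12, and around 0 between the T2D groups.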

How the data were processed

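Gene expression in 6 mouse heart libraries was read from a single table with 1 row per gene. The authors deposited rlog values, a form of log2 expression, for each library. Their deposited table adds, for 3 comparisons, log2 folds with raw p-values and adjusted ones. All called genes of that table had the sign of the rlog difference, so its folds run in the direction used here. Per the labels' protocols, libraries came from total RNA without ribosomal RNA, with a stranded Illumina kit. Tools listed in the submitters' processing notes are STAR 2.5.2a, DESeq2 and bcl2fastq 2.20.0.422, and builds GRCm38, mm10 and hg38, without roles. For the counting step, program and strand setting were not given in the sources used here. Transcript IDs of 53565 of 54352 rows were found in GENCODE M21, all at the same GRCm38 coordinates.

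All 6 libraries entered 1 limma 3.58.1 fit (R 4.3.3) with a term per group, a mean-variance trend and Benjamini-Hochberg adjustment at 0.05 over 13094 genes. Its residual degrees of freedom are 3, and 4.6 more come from the prior. Errors beside differences are limma's standard errors, and 95% intervals are not adjusted for the number of genes. P-values measure only the spread between these libraries, which may be technical. An exact permutation test cannot go below 0.333 for 2 against 2 or 0.0667 for 4 against 2, so none was used. The genes and lists were chosen with earlier results of these data known. Every one of the 10 genes is named, with the 2 genes of smallest p in each list and comparison, and the 5 most and 3 least like Pdk4 by Pearson r. A gene that the rule selects is not reported here. Alternatives changed the filter, the trend, the libraries in the fit, the centring, a replicate block and the length.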

Additional observations from a re-analysis of the deposited data

How the results depend on the processing

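The direction of each of the 10 genes in each comparison stayed as reported in 450 of 476 recomputations, with its side of the threshold. Another 15 turned round, all 15 with a library left out. The others, of Pdk4, Pdk2, Pdhx and Pdp2, passed where the reported fit did not. Most of them were fits that left 1 library in a group. Changes of filter, trend, groups in the fit or replicate block return the same difference, as does leaving out a library of a group not compared. Such recomputations could not turn a direction, so the 450 do not measure its stability. The count of called genes between T2D empty vector and control was 30 with only the groups compared in the fit, against 0, and 0 to 30 as libraries were left out. That between T2D dnMCUb and control, 9 genes, was 0 with no filter on low values, with a mean rlog of at least 8, with no mean-variance trend, with only the groups compared and with the replicate block, and 0 to 743 as libraries were left out (743 without library 2 of T2D dnMCUb and 89 without library 1). Between the T2D groups it was 0 to 14 (14 without library 1 of T2D dnMCUb), and with both T2D groups against control 0 to 314 (314 without library 2 of T2D dnMCUb). For the pooled comparison, fitting only the groups compared is the reported fit. The cause of these shifts was not tested. Where a left-out library leaves 1 in its group, that library is assumed to vary like the other groups. The counts of genes above and below 0 without a library were added after seeing the data.

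As libraries were left out, differences between the T2D groups ran from -0.152 to 0.0649 for Pdha1, -0.179 to 0.0181 for Pdk1, -0.202 to 0.0727 for Pdk2, -0.0518 to 0.134 for Pdk3, -0.224 to 0.285 for Pdk4 and -0.0726 to 0.0303 for Pdp1. In T2D dnMCUb against control they ran from -0.204 to 0.0134 for Pdha1, -0.12 to 0.0774 for Pdk1 and -0.0696 to 0.117 for Pdk3. Pdk3 ran from -0.046 to 0.0103 in T2D empty vector against control and from -0.0437 to 0.0494 in both T2D groups against control, where Pdk1 ran from -0.0303 to 0.0684. Differences that kept their sign also moved by over 1.5 times: in T2D empty vector against control Pdha1 ran from -0.0931 to -0.00992, Pdhb from -0.132 to -0.0216, Pdhx from -0.131 to -0.0517, Pdk1 from 0.0239 to 0.0948, Pdp1 from -0.134 to -0.0374, Pdp2 from -0.183 to -0.0239 and Pdpr from -0.11 to -0.00828. Between the T2D groups Pdhb ran from -0.168 to -0.00085, Pdhx from -0.191 to -0.0547, Pdp2 from -0.225 to -0.0238 and Pdpr from -0.125 to -0.0231. In T2D dnMCUb against control Pdhb ran from -0.245 to -0.0775, Pdk2 from -0.316 to -0.0409 and Pdp1 from -0.159 to -0.0556. Pdp2 ran there from -0.329 to -0.127 and Pdpr from -0.179 to -0.0876. With both T2D groups against control Pdha1 ran from -0.128 to -0.0191 and Pdhb from -0.161 to -0.0771. Pdk2 ran there from -0.215 to -0.0772 and Pdp1 from -0.145 to -0.048. The Pdk4 share of the kinases was 62.8% in T2D empty vector without division by length, and 74.1% in T2D dnMCUb, 72.8% in T2D empty vector and 53.1% in control with exon union lengths.

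Over genes, the difference of library 1 minus library 2 correlated at -0.511 between T2D dnMCUb and T2D empty vector. It correlated at -0.013 between T2D dnMCUb and control and at -0.088 between T2D empty vector and control. Library 1 of T2D dnMCUb stood apart from the other libraries, so these values do not settle whether replicate numbers pair the samples. With the replicate block the counts were 0 in all 4 comparisons. Crossing the numbers of T2D dnMCUb, an alternative chosen after seeing the data, also gave 0 called genes between the T2D groups. With 2 libraries a group and no counts, small differences of these genes could not be resolved.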
